A study of Mus musculus with 2 samples.

Results

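Interferon-stimulated genes were measured in single-cell RNA-seq libraries of prostate tumour tissue from 2 transgenic mouse genotypes, with 1 library per genotype. The genes were taken from a list of 34 fixed by name, of which 33 had a row among the 28000 features of both libraries. Mx2 had no row and was not analysed here. DoubleTg mice (hHGFtg:H11hMET/+:PB Cre4) carried a ubiquitously expressed human HGF transgene and a human MET transgene that Cre recombinase switches on. Cre was under the probasin promoter, which is active in prostate epithelium, so the MET transgene was conditional in that epithelium only. TripleTg mice carried both transgenes and Cre, and also the Ctnnb1 L(Ex3)/+ allele, from which Cre removes the third exon to leave a stabilised β-catenin. The animals were different littermates of mixed C57BL/6 and C3H SCID origin, and whether they were immunodeficient was not given in the sources used here. The number and age of the animals behind each library were not given in the sources used here. The tissue was digested in a medium that held dihydrotestosterone and the kinase inhibitor Y-27632. With 1 library a genotype there is no replicate, and every interval covers counting error only.

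Interferons are secreted proteins that warn cells of infection. Type I interferons such as interferon beta bind Ifnar1 and Ifnar2, which act through Jak1 and Tyk2 on a complex that holds Stat2 and Irf9 and binds the interferon-stimulated response element (ISRE) of target genes. Interferon gamma, made by T and NK cells, acts through Ifngr1 and Ifngr2 and the gamma-activated site (GAS) of its target genes, and Irf1 is one of its targets. The listed genes fall into roles. Isg15 is a ubiquitin-like modifier and Usp18 removes it. The IFIT proteins (Ifit1, Ifit2, Ifit3, Ifit3b) bind foreign RNA, the OAS proteins sense double-stranded RNA, and Ifih1, Dhx58 and Trim25 serve RNA sensing. Rsad2 (viperin) and Bst2 (tetherin) block virus replication and release. Gbp2, Gbp3, Gbp7, Igtp, Irgm1 and Iigp1 are GTPases that act on the vacuoles of intracellular pathogens.

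The sequences upstream of 9 of these genes are shown because each holds one short motif that many, though not all, of the listed genes have there. Promoter sequences from RefSeq (GRCm38.p6) were matched by symbol for 25 of the 33 genes. The core of the ISRE was searched as GAAANNGAAA on both strands, within the 250 bases before each start. It was found for 14 of the 25 genes and in 978 of 32851 promoters of the same length, or 2.98%. The GAS motif, searched as TTCNNNGAA, which reads the same on both strands, was found for 6 of the 25 genes and in 7.02% of all promoters. The 9 sequences below are the 200 bases before the RefSeq start, 5′ to 3′ on the gene's own strand, with matches to the ISRE core in capitals. GENCODE places some starts elsewhere. By its positions the stretch of Irgm1 lies within the gene, and those of Gbp2 and Ifit1 reach into it. The 3 matches of Isg15 (chr4:156200819-156201018, minus strand), the 2 of Bst2 (chr8:71537473-71537672, minus strand) and the 2 of Irgm1 (chr11:48871421-48871620, minus strand) overlap one another. Ifit1 (chr19:34640689-34640888, plus strand), Ifit3 (chr19:34583329-34583528, plus strand) and Ifit3b (chr19:34607757-34607956, plus strand) held 2 separate matches each. Rsad2 (chr12:26456453-26456652, minus strand), Gbp2 (chr3:142620463-142620662, plus strand) and Igtp (chr11:58199356-58199555, plus strand) held 1 each. A match is a description of the letters, not evidence of binding.
Isg15: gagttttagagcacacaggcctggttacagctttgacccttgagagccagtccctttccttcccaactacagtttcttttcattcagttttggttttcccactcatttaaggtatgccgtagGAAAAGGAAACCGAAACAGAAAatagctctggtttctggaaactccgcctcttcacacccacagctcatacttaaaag
Rsad2: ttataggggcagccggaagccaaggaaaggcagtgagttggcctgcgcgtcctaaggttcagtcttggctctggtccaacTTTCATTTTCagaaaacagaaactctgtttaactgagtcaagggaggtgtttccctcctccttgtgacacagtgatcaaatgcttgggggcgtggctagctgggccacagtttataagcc
Ifit1: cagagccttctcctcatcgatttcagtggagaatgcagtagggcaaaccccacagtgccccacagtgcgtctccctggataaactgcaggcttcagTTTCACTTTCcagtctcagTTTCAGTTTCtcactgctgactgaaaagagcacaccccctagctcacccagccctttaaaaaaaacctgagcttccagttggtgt
Ifit3: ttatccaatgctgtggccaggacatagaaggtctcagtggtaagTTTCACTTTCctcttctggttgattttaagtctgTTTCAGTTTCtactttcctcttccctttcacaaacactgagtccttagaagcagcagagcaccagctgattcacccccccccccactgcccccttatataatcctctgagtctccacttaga
Ifit3b: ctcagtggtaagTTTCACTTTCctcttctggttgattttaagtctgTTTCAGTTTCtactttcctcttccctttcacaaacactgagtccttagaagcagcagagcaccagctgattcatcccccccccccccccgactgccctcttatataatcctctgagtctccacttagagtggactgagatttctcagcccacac
Bst2: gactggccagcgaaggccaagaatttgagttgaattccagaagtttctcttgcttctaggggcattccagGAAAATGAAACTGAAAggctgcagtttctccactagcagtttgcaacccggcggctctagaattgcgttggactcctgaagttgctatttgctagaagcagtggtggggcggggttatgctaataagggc
Gbp2: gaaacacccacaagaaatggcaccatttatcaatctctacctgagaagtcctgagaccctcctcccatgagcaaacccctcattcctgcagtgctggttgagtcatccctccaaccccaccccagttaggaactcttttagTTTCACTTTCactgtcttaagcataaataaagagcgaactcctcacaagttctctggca
Irgm1: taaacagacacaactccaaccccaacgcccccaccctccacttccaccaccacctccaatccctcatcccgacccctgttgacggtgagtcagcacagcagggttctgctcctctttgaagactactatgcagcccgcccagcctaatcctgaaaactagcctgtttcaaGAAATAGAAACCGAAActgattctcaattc
Igtp: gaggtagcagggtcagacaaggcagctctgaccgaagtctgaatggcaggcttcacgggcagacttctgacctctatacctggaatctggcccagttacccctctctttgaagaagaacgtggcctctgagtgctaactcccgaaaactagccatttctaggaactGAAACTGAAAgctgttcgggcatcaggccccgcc

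Ifit3 and Ifit3b are near copies on chromosome 19. Their transcripts differed at 34 of 1697 aligned bases, and their upstream sequences were 86.2% identical over 218 bases at a shift of 32 bases. The split of reads between them is therefore uncertain, as it is for Oas1a, which belongs to a family of close copies.

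The DoubleTg library held 12072 cells, of which 10598 had over 200 and under 7000 genes and under 15% mitochondrial unique molecular identifiers (UMIs). All 9492 TripleTg cells met these limits. The study gives fewer DoubleTg cells, both before and after the same limits, so the cells described here are not exactly those it analysed. The kept cells held 256880958 and 229655259 UMIs, with medians of 16761 and 20097 UMIs per cell, and 29 barcodes occurred in both libraries. Cells were clustered without the listed genes or other interferon pathway genes, and clusters were named from markers. The epithelial-like class held 7590 DoubleTg and 6737 TripleTg cells, the stromal-like class 1329 and 1003, and the immune-like class 817 and 481, while 862 and 1271 cells were left unnamed. A T and NK-like class was named in the DoubleTg library only, with 438 cells. A TripleTg cluster of 138 cells also had T and NK markers among its top genes, but stayed unnamed as mixed with epithelial RNA. Axin2, a target of β-catenin, was at 2.56 UMIs per 1000000 UMIs of the class (CPM) in DoubleTg and 73.1 CPM in TripleTg epithelial-like cells, and hMETtg at 429 and 40.1 CPM. The probasin gene Pbsn was at 1434 and 5.21 CPM. The summed level of 8 epithelial markers was 3556 and 3592 CPM in stromal-like cells, against 14803 and 13982 CPM in epithelial-like cells. The part of RNA from other cells in the levels below was not tested.

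The summed level of the 33 genes was lowest in epithelial-like cells of both libraries. In the DoubleTg library it was 785.7 CPM in epithelial-like cells (95% exact Poisson interval 782 to 789), 2718 CPM in stromal-like cells (2690 to 2747) and 2129 CPM in immune-like cells. In the TripleTg library it was 492 CPM in epithelial-like, 1638 CPM in stromal-like and 1766 CPM in immune-like cells. The order of the stromal-like and immune-like classes depended on the setting. In TripleTg it turned at 5000 UMIs per cell (1751 and 1676 CPM), and in DoubleTg it turned without T and NK-like cells, which left immune-like cells at 3149 CPM.

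Among the narrower DoubleTg classes, the macrophage-like (4042 CPM), Schwann-like (4017 CPM) and endothelial-like cells (4016 CPM) were highest, and their intervals overlapped. Smooth muscle-like cells followed at 3162 CPM, stromal-like cells of no named type at 2738 CPM, fibroblast-like cells at 1978 CPM, dendritic-like cells at 1457 CPM, luminal-like cells at 872 CPM and T and NK-like cells at 761 CPM. The lowest class was basal-like, at 229 CPM (224 to 235). In the TripleTg library Schwann-like (3571 CPM, from 25 cells) and endothelial-like cells (2604 CPM) led, ahead of macrophage-like cells at 1870 CPM (1834 to 1908). Basal-like cells stood at 377 CPM (369.7 to 384), below luminal-like cells at 461 CPM and seminal vesicle-like cells at 809.6 CPM, and 80 epithelial-like cells of no named type stood at 121 CPM.

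**Figure D1:**
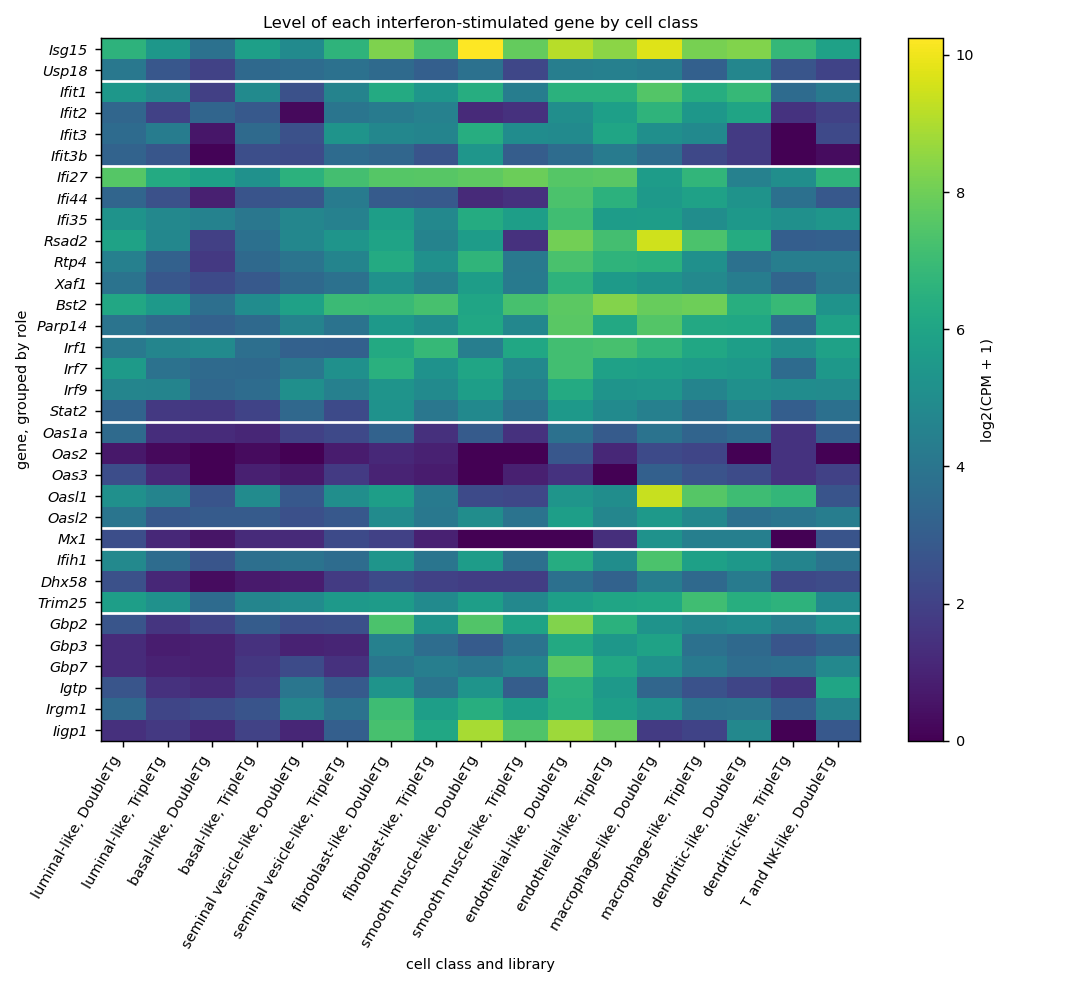
Level of each of the 33 genes (rows, grouped by role) in each cell class and library (columns), as log2(CPM + 1) of UMIs summed over the cells of the class. Isg15 is bright in smooth muscle-like, macrophage-like and endothelial-like cells, Rsad2 and Oasl1 in macrophage-like cells, and the GTPases Iigp1 and Gbp2 in stromal-like classes, with Iigp1 at 2.43 and 3.23 CPM in macrophage-like cells.

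In epithelial-like cells the most abundant member was Ifi27, a mitochondrial and nuclear protein, at 169 CPM in DoubleTg and 78.8 CPM in TripleTg cells. The next were Isg15 (84.3 and 50.4 CPM), Bst2 (62.8 and 53.2 CPM), Rsad2 (50.03 and 25.6 CPM) and Trim25 (47.6 and 35.4 CPM). The 10x 3′ assay counts one tag per molecule, so these levels were not scaled by gene length. Ifi27 made up more of the epithelial sum than any other member, and its UMIs were found in 68.0% and 62.5% of epithelial-like cells. Isg15 UMIs were found in 29.3% and 21.3% of them. The 6 GTPases were low in this class, with 3.22% and 3.18% of the members' UMIs. Iigp1 was at 1.82 and 3.01 CPM, Gbp3 at 1.41 and 0.940 CPM and Gbp7 at 1.39 and 1.24 CPM.

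Stromal-like cells differed from epithelial-like cells most in these GTPases. They took 26.1% of the members' UMIs in DoubleTg and 19.6% in TripleTg stromal-like cells. A gene was counted as different when it reached 5 CPM in either class and the classes differed by at least 2-fold. Of the 30 members at that level in DoubleTg, 21 were at least 2-fold higher in stromal-like cells, against 24.6% of all genes. In TripleTg, 19 of 28 were, against 27.7% of all genes. The median log2 ratio was 1.75 in DoubleTg and 1.98 in TripleTg, beside 0.11 and 0.31 for all genes at that level. Between fibroblast-like and luminal-like cells alone it was 0.96 in DoubleTg and 1.55 in TripleTg.

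Iigp1, an immunity-related GTPase, had the largest ratio. It was at 258 CPM in DoubleTg and 129 CPM in TripleTg stromal-like cells, with log2 ratios to epithelial-like cells of 7.14 (6.997 to 7.29) and 5.42 (5.28 to 5.56). Gbp2, a guanylate-binding protein, was at 175 and 57.1 CPM, with log2 ratios of 5.03 and 4.27. The ratios of the other GTPases lay between 3.34 (Igtp) and 5.28 (Gbp7) in DoubleTg and between 3.22 (Igtp) and 4.84 (Gbp7) in TripleTg. All 6 GTPases were thus above every other member in this ratio, where Isg15 (2.60) came next in DoubleTg and Stat2 (2.91) in TripleTg. Endothelial-like cells held Gbp2 at 318 and 91.2 CPM. The other abundant stromal members were Isg15, at 509.9 and 217 CPM, Ifi27 at 177 and 202 CPM and Bst2 at 158 and 199 CPM. By contrast, the RNA sensing gene Trim25 was close to its epithelial level, with log2 ratios of 0.12 and 0.11.

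Immune-like cells were led by Isg15, Rsad2 and Oasl1 in DoubleTg and by Isg15, Bst2 and Oasl1 in TripleTg. Isg15 was at 406 CPM in DoubleTg and 269 CPM in TripleTg immune-like cells, Rsad2 at 294 and 147 CPM and Oasl1, an OAS-like protein that limits Irf7 translation, at 279 and 177 CPM. Bst2 was at 119.97 and 239 CPM. Parp14, an ADP-ribosyltransferase, was the fifth in DoubleTg at 105 CPM (65.2 CPM in TripleTg), and Trim25 the fifth in TripleTg at 133 CPM. Of 32 members at 5 CPM, 19 were at least 2-fold higher than in epithelial-like cells in DoubleTg, against 21.2% of all genes. In TripleTg 23 of 29 were, against 21.4% of all genes. The median log2 ratios were 1.42 and 2.16, and 1.13 and 1.24 with unnamed clusters given to their nearest class.

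Most of the immune signal came from macrophage-like cells. Their Isg15 was at 853 CPM in DoubleTg and 285 CPM in TripleTg, Rsad2 at 733 and 162 CPM and Oasl1 at 668 and 184 CPM. Their 8 macrophage markers summed to 11644 and 26896 CPM, against 10.5 and 68.4 CPM in epithelial-like cells. Unlike stromal-like cells, macrophage-like cells held few GTPase UMIs, 4.45% and 4.23% of the members' UMIs. In DoubleTg T and NK-like cells that share was 21.2%, and Igtp was at 63.9 CPM there.

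Luminal-like and basal-like cells differed in DoubleTg but much less in TripleTg. In DoubleTg 21 of 26 members were at least 2-fold higher in luminal-like cells, against 21% of all genes, and none was 2-fold lower, against 18.8%. Their median log2 ratio was 2.22, and the sums stood at 872 and 229 CPM. In TripleTg 3 of 23 members were 2-fold higher in luminal-like cells, against 8.31% of all genes, and 2 were 2-fold lower, against 10.6%. The median there was -0.07. The difference between the libraries in this ratio was not tested. The basal-like classes also differed in their markers, with 7 basal markers at 15310 CPM in DoubleTg and 5327 CPM in TripleTg and 7 seminal vesicle markers at 142 and 3321 CPM.

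Luminal-like clusters differed among themselves. In DoubleTg their sums ran from 502 to 1609 CPM, and both basal-like clusters lay below that range, at 219 and 243 CPM. In TripleTg luminal-like clusters ran from 180.1 to 1413 CPM and basal-like clusters from 129 to 522 CPM, so that the ranges overlapped. The highest DoubleTg luminal-like cluster (810 cells) had Isg15 at 219 CPM, Rsad2 at 226 CPM and Ifit1 at 159 CPM. A luminal-like cluster of 524 cells with a sum of 521 CPM instead held Ifi27 at 238 CPM and Isg15 at 13.0 CPM.

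**Figure D2:**
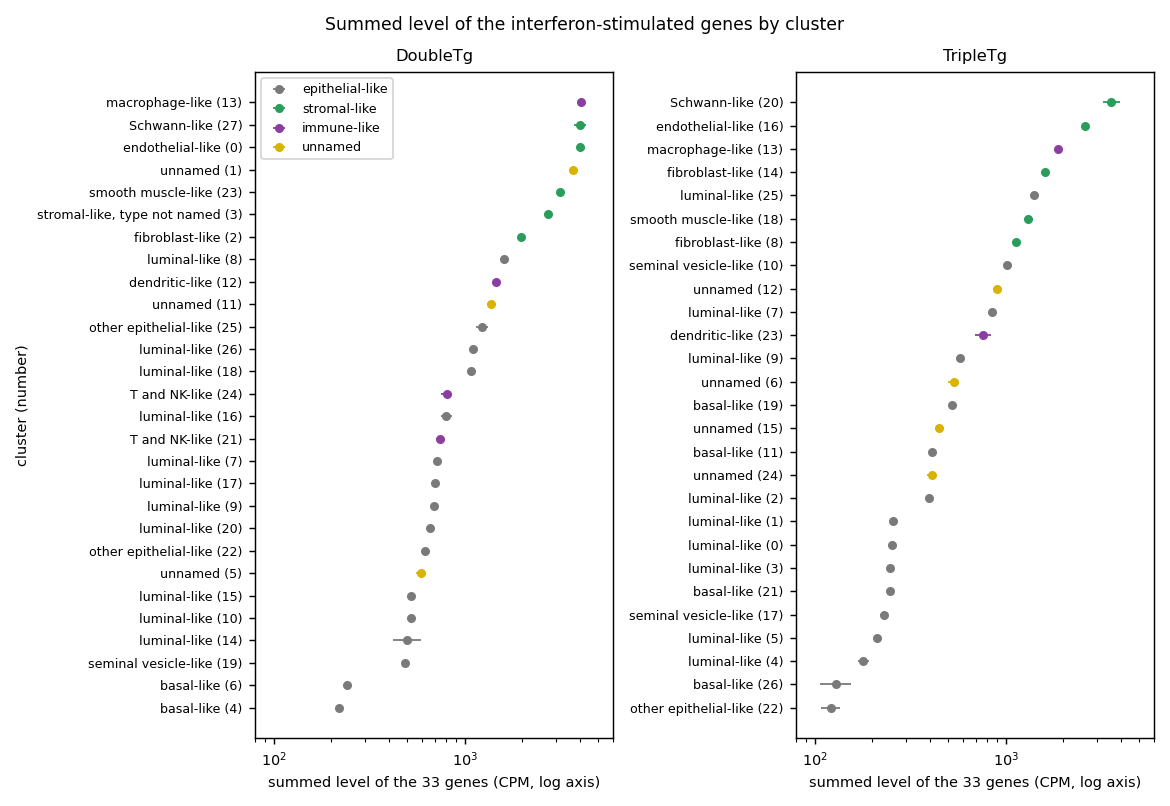
Summed level of the 33 genes in CPM (log axis) for each cluster of the DoubleTg (left) and TripleTg (right) library, in order of level, with points coloured by broad class and lines for the 95% exact Poisson interval. Macrophage-like, Schwann-like and endothelial-like clusters stand highest in DoubleTg and its basal-like clusters lowest, at 219 and 243 CPM, whereas in TripleTg luminal-like and basal-like clusters are interleaved between 129 and 1413 CPM.

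Between the libraries, luminal-like cells of the TripleTg library had less of most members. The sum was 872 CPM in DoubleTg and 461 CPM in TripleTg luminal-like cells, a 1.89-fold lower level. Of 26 members at 5 CPM in either library, 15 were at least 2-fold lower in TripleTg, against 12.5% of all genes, and none was 2-fold higher, against 11.6%. The median log2 ratio was -1.24, beside -0.01 for all genes. Oas1a, an RNA-activated oligoadenylate synthetase, had the lowest ratio, 10.7 against 1.52 CPM or -2.82 (-3.02 to -2.62). Stat2, the type I interferon transducer, was at 8.76 and 2.25 CPM, and Irf7, the factor that amplifies type I interferon production, at 47.5 and 13.5 CPM. Isg15 was at 96.3 and 41.6 CPM (-1.21). Ifit3 (11.1 and 18.9 CPM) and Irf1 (16.8 and 24.1 CPM) were higher in TripleTg, both by less than 2-fold.

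Over all epithelial-like cells the same comparison gave smaller values, since the class also holds basal-like and seminal vesicle-like cells. Of 26 members, 8 were at least 2-fold lower in TripleTg, against 12% of all genes, and 1 was 2-fold higher, against 9.57%. The median log2 ratio was -0.84 beside -0.13 for all genes, and -0.58 once every cell was thinned to 5000 UMIs. Without the cluster of highest level in each library, which lowered the DoubleTg sum more than the TripleTg sum, it was -0.51. With a limit of 20 CPM it was -0.43. The lowest ratios were those of Oas1a (9.49 and 1.75 CPM, -2.44), Stat2 (7.93 and 2.57 CPM, -1.63), Irf7 (42.7 and 15.8 CPM, -1.43), Oasl2 (13.8 and 6.03 CPM, -1.19) and Ifih1 (24.3 and 11.2 CPM, -1.11). Ifit3 was the member 2-fold higher in TripleTg, at 9.51 and 20.2 CPM (1.09), although its near copy Ifit3b was at 7.45 and 6.19 CPM. Gbp2 (5.35 and 2.96 CPM) and Igtp (5.26 and 2.48 CPM) were near the limit of 5 CPM. The other 7 members, Oas2, Oas3, Mx1, Dhx58, Gbp3, Gbp7 and Iigp1, stayed under 5 CPM in both libraries and were not counted. A member that reached 5 CPM in one library alone entered through its higher side, so the counts describe these members and not the whole list.

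In basal-like cells the direction was opposite. The sum was 229 CPM in DoubleTg and 377 CPM in TripleTg basal-like cells, 1.64-fold higher. Seminal vesicle-like cells also had the higher sum in TripleTg, 487 and 809.6 CPM. Of 22 members, 12 were at least 2-fold higher in TripleTg, against 15.4% of all genes, and 1 was 2-fold lower, against 13%. Their median log2 ratio was 1.11, beside -0.06 for all genes. Ifit3 was at 0.542 and 10.7 CPM (4.31, 3.54 to 5.20), Ifit1 at 2.79 and 28.8 CPM (3.37), Isg15 at 13.0 and 53.3 CPM (2.04) and Rsad2 at 2.86 and 12.7 CPM (2.15). Of the 5 members below 0, Irf1 was the one 2-fold lower, at 28.6 and 12.4 CPM (-1.204). Ifi27, the most abundant basal member of DoubleTg, was at 55.1 and 35.4 CPM.

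The basal-like difference was smaller once a few cells were left out, and the markers of the class differed between the libraries. Those cells were chosen by the members they held. Leaving them out therefore lowers the sum by construction, more so in TripleTg, where more were left out. Left without the 18 TripleTg cells and the 1 DoubleTg cell that held UMIs of at least 10 members, the sums were 228.1 and 231.5 CPM and the median log2 ratio was 0.52 over 17 members. Of these, 4 were then 2-fold higher, against 15.2% of all genes, and 2 lower, against 13.1%. Isg15 was then at 12.7 and 18.5 CPM (0.55) and Rsad2 at 2.87 and 2.53 CPM (-0.18). Ifit2 was at 9.26 and 0.845 CPM (-3.45) and Oasl1 at 5.31 and 24.2 CPM (2.19). Beside the lower basal and higher seminal vesicle markers given above, 8 macrophage markers summed to 11.8 and 69.2 CPM. The part of these differences in the result was not tested.

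Stromal-like cells of TripleTg had a sum of 1638 CPM against 2718 CPM, 1.66-fold lower. The DoubleTg class held 395 cells of no named type, with a sum of 2738 CPM, that had no counterpart in TripleTg. Of 30 members, 12 were at least 2-fold lower in TripleTg, against 5.01% of all genes, and none was 2-fold higher, against 8.23%. The median log2 ratio was -0.90 beside 0.07 for all genes. The lowest ratios were those of Oas1a (10.4 and 3.05 CPM, -1.77), Gbp2 (175 and 57.1 CPM, -1.61), Irf7 (102 and 40.2 CPM, -1.34), Irgm1 (138 and 55.1 CPM, -1.32) and Isg15 (509.9 and 217 CPM, -1.23). Of the 6 GTPases, Gbp2, Irgm1 and Igtp (53.4 and 23.2 CPM, -1.204) were 2-fold lower. The other 3 were lower by less, with Iigp1 at -0.998 just short of that limit. Members on the other side of 0 were Bst2 (158 and 199 CPM), Irf1 (103 and 121 CPM) and Ifi27 (177 and 202 CPM). Ifit3 was at 40.7 and 37.3 CPM, with an interval of its log2 ratio from -0.33 to 0.08, and Oasl2 at 40.7 and 18.4 CPM.

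The direction was the same in the narrower stromal classes with over 200 cells in both libraries. The median log2 ratio was -0.77 over 31 members in endothelial-like cells and -0.89 over 29 members in fibroblast-like cells, beside 0.05 and 0.11 for all genes. In smooth muscle-like cells, with 65 and 96 cells, Isg15 was at 1209 and 223 CPM. Endothelial-like Bst2 went the other way, at 202 and 319 CPM, beside Isg15 at 565 and 353 CPM.

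Macrophage-like cells of TripleTg had a sum of 1870 CPM against 4042 CPM, 2.16-fold lower. Of 31 members, 13 were at least 2-fold lower, against 5.27% of all genes, and 2 were 2-fold higher, against 14.7%. Their median log2 ratio was -0.85 beside 0.23 for all genes. Rsad2 was lowest at -2.18 (-2.30 to -2.07), followed by Gbp3 (58.9 and 13.1 CPM, -2.17), Oasl1 at -1.86 and Isg15 at -1.58. The members 2-fold higher were Ifi27 (49.8 and 106 CPM, 1.09) and Trim25 (67.4 and 137 CPM, 1.02). Bst2 was at 233 and 251 CPM with an interval of its log2 ratio from -0.02 to 0.24. In these cells the 8 epithelial markers summed to 653 CPM in DoubleTg and 1670 CPM in TripleTg, and the part of that RNA in the result was not tested. In epithelial-like cells Ifi27 was at 169 and 78.8 CPM and Trim25 at 47.6 and 35.4 CPM.

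The whole immune-like class gave 3 of 31 members 2-fold lower in TripleTg, against 12.2% of all genes, and 1 higher, against 10.8%. Its median log2 ratio was -0.44 beside -0.06. The class held T and NK-like cells in DoubleTg alone, as the TripleTg cluster with such markers stayed unnamed. Without T and NK-like cells the median was -0.73 and 12 of 32 members were 2-fold lower, against 5.61% of all genes. With unnamed clusters given to their nearest class, 13 of 30 were, against 7.71%. Igtp had the lowest ratio, 31.5 and 4.64 CPM (-2.76), followed by Iigp1 (8.76 and 2.92 CPM, -1.58) and Gbp3 (27.7 and 12.4 CPM, -1.16). Trim25 had the highest, 54.0 and 133 CPM (1.30). Rsad2 (294 and 147 CPM) was at -0.998, just short of the limit, and Bst2 at 0.99. Irf7 (47.5 and 45.1 CPM) and Oasl2 (27.1 and 25.1 CPM) had intervals that held 0, Ifit3 was at 14.5 and 25.5 CPM, and Gbp2 at 34.6 and 25.5 CPM. Sums over such a mixed class also follow its makeup.

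**Figure D3:**
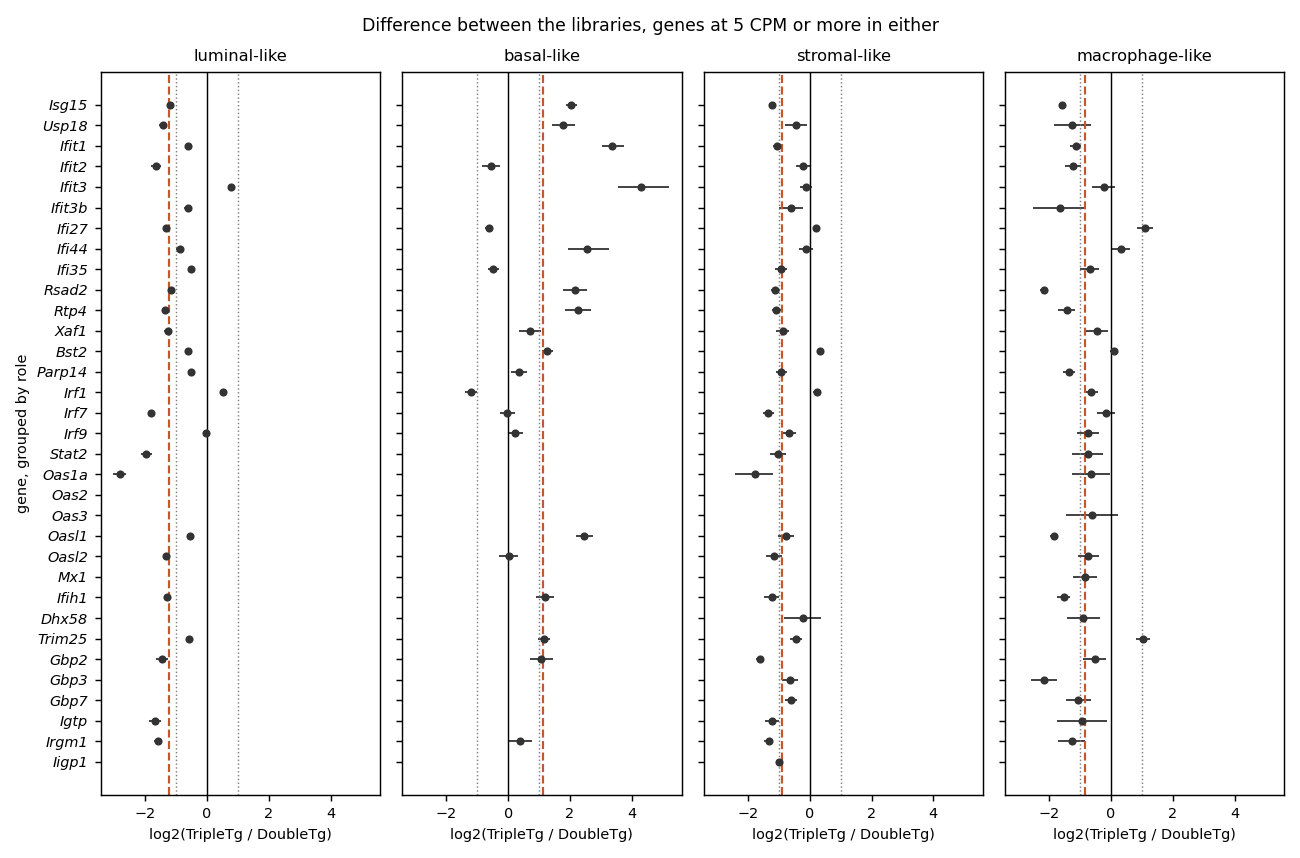
Log2 ratio of TripleTg to DoubleTg CPM for each gene at 5 CPM or more in either library (rows, grouped by role), in luminal-like, basal-like, stromal-like and macrophage-like cells, with lines for the 95% conditional binomial interval, dotted lines at 2-fold and a dashed line at the median. The medians lie at -1.24, 1.11, -0.90 and -0.85, so that the basal-like panel alone is shifted to the right.

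Member UMIs were spread unevenly over cells. Each cell was thinned to 5000 UMIs, and shallower cells (858 DoubleTg and 324 TripleTg epithelial-like cells) were left out. At least 5 members were detected in 9.67% of DoubleTg and 5.24% of TripleTg epithelial-like cells. The share was 66.2% and 42.4% in stromal-like cells, and 32.9% and 30.8% in immune-like cells. With all UMIs of each cell, and so at unequal depth, the immune-like shares were 50.8% and 57.0% and the epithelial-like shares 57.0% and 42.5%. The order of the libraries then turned in immune-like but not in epithelial-like cells. Within DoubleTg the order of immune-like and epithelial-like cells turned too. At 5000 UMIs the share was 87.4% and 62.5% in endothelial-like cells. In basal-like cells it was 0.986% in DoubleTg (exact binomial interval 0.575 to 1.57) and 4.22% in TripleTg. No member was detected in 18.7% and 31.2% of epithelial-like cells at this depth.

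A small number of epithelial-like cells carried much of the epithelial signal. At least 10 members were detected in 99 of 6732 cells of the DoubleTg library (1.47%, interval 1.197 to 1.79) and 107 of 6413 of the TripleTg library (1.67%, interval 1.37 to 2.01). These cells held 25.1% and 32.0% of the members' UMIs of the class. The limit of 10 was set after the data had been seen, and 18 DoubleTg cells stood at exactly 10 and 33 at 9. In stromal-like cells the same limit took in 238 of 841 DoubleTg and 56 of 589 TripleTg cells, and in macrophage-like cells 42 of 268 and 30 of 413. That is 28.3% and 9.51% of stromal-like cells, and the intervals of 25.3 to 31.5% and 7.26 to 12.2% lie above the epithelial ones.

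In these epithelial-like cells the mean Isg15 count at 5000 UMIs was 12.8 in DoubleTg and 8.94 in TripleTg, against 0.187 and 0.101 in the other epithelial-like cells. Rsad2 was at 11.1 and 5.69 UMIs, against 0.0660 and 0.0222. Ifi27 differed far less, at 1.202 and 1.17 UMIs against 0.733 and 0.384. Since the cells were chosen by the members, these values are a description. Genes outside the list were not used in the choice. Of 31 other interferon-induced genes, 31 in DoubleTg and 30 in TripleTg had a higher mean in these cells, and 26 of 27 and 25 of 26 of those with at least 20 UMIs were at least 2-fold higher, against 11% of all genes with 20 UMIs in each library. UMIs of Cxcl10, a chemokine that draws T cells, were found in 35.4% and 33.6% of them, against 4.18% and 4.30% of the others. UMIs of Cmpk2, a nucleotide kinase, were found in 46.5% and 40.2%, against 1.12% and 0.539%.

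Epithelial and leukocyte genes were read in the same cells. UMIs of Epcam, an epithelial adhesion protein, were found in 100% of them in both libraries, those of the leukocyte gene Ptprc in 0 of 99 and 1 of 107, and those of the macrophage gene C1qa in 1 and 3. A count of 0 in 99, taken as at most 3 counts, allows up to 3.03% of cells with a Ptprc UMI and does not limit the cells that express it. None was a predicted doublet in DoubleTg, while the doublet caller gave no calls in TripleTg. Their median depth was 38317 UMIs against 28075 in DoubleTg and 29179 against 26192 in TripleTg. Single luminal-like clusters held the most of them, 42 of 804 cells (5.22%) in DoubleTg and 41 of 935 (4.39%) in TripleTg, and smaller clusters reached shares of 6.52% (3 of 46) and 5.13% (6 of 117). They also occurred in 10 of 511 cells of a basal-like TripleTg cluster. Without them, the luminal-like median between the libraries was -1.39 over 21 members, and the macrophage-like median without such cells was -0.69.

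**Figure D4:**
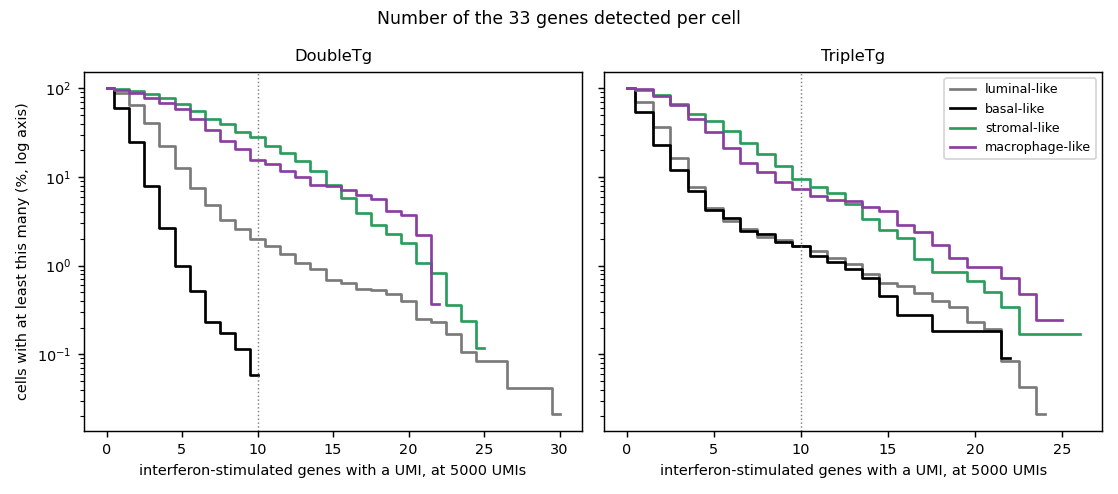
Share of cells (percent, log axis) in which at least the given number of the 33 genes was detected after thinning to 5000 UMIs, for 4 classes of the DoubleTg (left) and TripleTg (right) library, with a dotted line at 10 genes. Stromal-like and macrophage-like curves lie above the epithelial ones throughout the range to 15 genes, and the basal-like curve ends at 10 genes in DoubleTg but runs beside the luminal-like curve in TripleTg.

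Co-expression was described by Spearman coefficients (rho) across cells of a class at 5000 UMIs, over members with a UMI in at least 5% of the cells. The cells share their library and the counts are sparse, so weak coefficients carry no weight. In epithelial-like cells the median over pairs was 0.07 in DoubleTg (78 pairs of 13 members, 6732 cells) and 0.05 in TripleTg (36 pairs of 9 members, 6413 cells). In stromal-like cells it was 0.14 and 0.13, with 95 of 406 and 78 of 300 pairs at 0.2 or more. In macrophage-like cells (268 and 413) it was 0.15 and 0.15, with 151 of 378 and 79 of 253 pairs at 0.2 or more. Pairs over all genes had medians between -0.002 and 0.007. These medians depended on depth. With all UMIs the stromal-like medians were 0.26 and 0.20, beside 0.24 and 0.24 in epithelial-like cells, so that the order of these classes turned in TripleTg.

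The strongest pair of DoubleTg macrophage-like cells was Ifit1 with Rsad2 at 0.60, and Isg15 with Oasl1 reached 0.53. The same pair Ifit1 with Rsad2 was at 0.51 in TripleTg. In DoubleTg stromal-like cells Isg15 paired with Ifit1 (0.45) and with the GTPase Iigp1 (0.43), so that the GTPases varied with the other members. The summed GTPases correlated with the sum of the other members at 0.63 and 0.49 in stromal-like cells, 0.35 and 0.30 in macrophage-like cells and 0.11 and 0.19 in epithelial-like cells. Some members followed the rest less. Ifi27 had a coefficient with the rest of the members of 0.02 in DoubleTg and 0.17 in TripleTg stromal-like cells, and of 0.08 and -0.07 in macrophage-like cells. In macrophage-like cells Bst2 had 0.02 and 0.17 and Trim25 0.07 and 0.03, whereas Isg15 had 0.63 and 0.41. Irf1 lay between 0.03 and 0.17 in the broad classes.

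**Figure D5:**
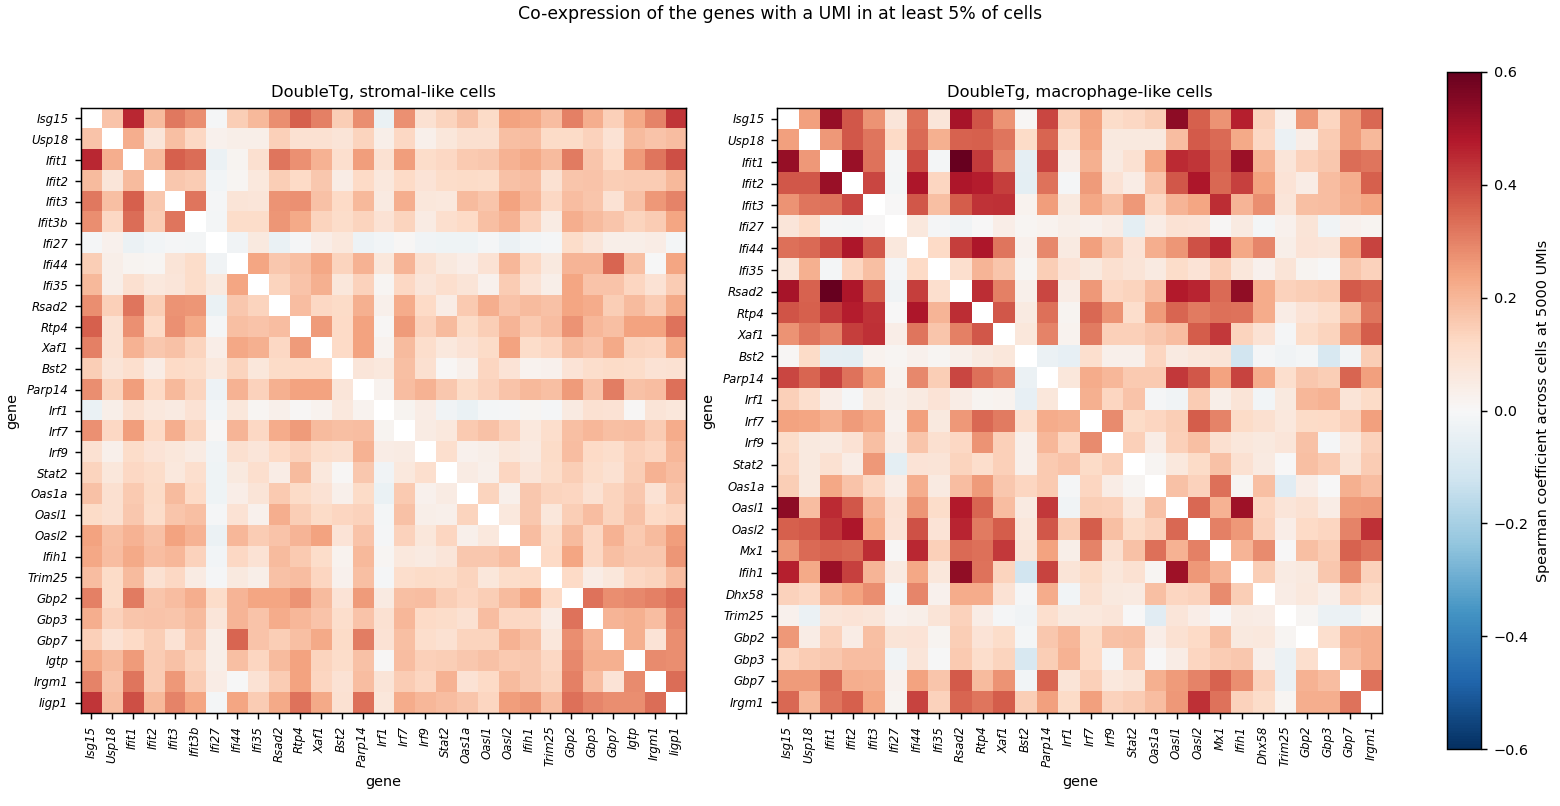
Spearman coefficients across DoubleTg stromal-like (left) and macrophage-like (right) cells at 5000 UMIs, between genes with a UMI in at least 5% of the cells, with genes in the order of their roles and the colour scale from -0.6 to 0.6. Ifit1 and Rsad2 form the darkest pair on the right at 0.60, Iigp1 and Isg15 reach 0.43 on the left, and the rows of Ifi27 and Irf1 stay pale on both sides.

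Genes outside the list whose counts followed the summed members differed by class. In stromal-like cells the first was Ifitm3, a membrane protein that blocks virus entry, at 0.52 in DoubleTg and 0.51 in TripleTg. It was followed in DoubleTg by Rnf213 (0.48), Ifi47 (0.41), Trim30a (0.38) and H2-Q4 (0.37), and in TripleTg by the class I light chain B2m (0.37), H2-D1 (0.36), Gpihbp1 (0.33) and Esam (0.31). Gpihbp1 and Esam are endothelial genes, and endothelial-like cells had higher sums than fibroblast-like cells of this class. In immune-like cells the DoubleTg genes were Ccl4 (0.49), Ms4a7 (0.46), Cd14 (0.45), C1qb (0.45) and Ifi204 (0.45), which include macrophage markers. Those of TripleTg were Ifi204 (0.36), Ccl5 (0.33), Pyhin1 (0.32), Cxcl10 (0.29) and B2m (0.29). In epithelial-like cells they were Cldn3 (0.37), Tspan1 (0.35), Ly6e (0.34), Clu (0.33) and H2-K1 (0.31) in DoubleTg, and B2m (0.33), Clu (0.32), Lcn2 (0.31), H2-K1 (0.30) and Plac8 (0.25) in TripleTg. Coefficients across a mixed class also follow the types within it.

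Interferon transcripts themselves were rare. Ifnb1, which encodes interferon beta, had 263 UMIs in 57 DoubleTg and 135 UMIs in 27 TripleTg cells. Of these, 228 and 119 UMIs lay in macrophage-like cells, in 43 of 283 (15.2%, 11.2 to 19.9) and 16 of 434 (3.69%, 2.12 to 5.92) cells. The share in epithelial-like cells was 0.0659% and 0.104%, although their median depth of 24397.5 and 25430 UMIs was above the 10304 and 10051 UMIs of macrophage-like cells. Ifng, which encodes interferon gamma, had 109 of its 114 DoubleTg UMIs in T and NK-like cells, in 65 of 438 cells (14.8%), against 0.0527% of epithelial-like cells. In TripleTg it had 26 UMIs, of which 17 were in unnamed cells. The epithelial interferons differed in place. Ifne had UMIs in 4.30% of DoubleTg and 0.753% of TripleTg luminal-like cells, and in 0.268% and 2.89% of basal-like cells, against 0.230% of TripleTg macrophage-like cells. Ifnk, an interferon of keratinocytes, had UMIs in 0.428% of DoubleTg and 9.35% of TripleTg basal-like cells, with median depths of 12661 and 21308 UMIs. Basal-like Ifnk was at 0.310 CPM in DoubleTg and 11.8 CPM (10.6 to 13.2) in TripleTg. In luminal-like cells Ifnk had UMIs in 15 of 5418 DoubleTg and 126 of 4915 TripleTg cells, at 0.130 and 1.31 CPM. Its share in macrophage-like cells was 0.707% and 0.691%, so the DoubleTg basal-like share was not above that of another class.

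The macrophage-like cells with an Ifnb1 UMI held high member levels. Their sum was 11063 CPM over 43 cells in DoubleTg and 10411 CPM over 16 cells in TripleTg, against 2635 and 1618 CPM in the other macrophage-like cells. Isg15 was at 2548 and 2924 CPM, against 513 and 207 CPM, and Rsad2 at 2943 and 1700 CPM, against 291 and 116 CPM. Not every member followed. Bst2 was at 222 and 258 CPM, against 235 and 251 CPM, and Gbp2 at 40.0 and 52.9 CPM, against 37.2 and 25.2 CPM. The median depth was 12115 UMIs against 10000 in DoubleTg and 9296 against 10104 in TripleTg.

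Other genes of the pathway were taken from a list of 64, of which Cgas had no row. In stromal-like cells 28 other interferon-induced genes reached 5 CPM, of which 6 were 2-fold lower in TripleTg, against 5.01% of all genes, and none higher, against 8.23%, with a median log2 ratio of -0.81. In luminal-like cells 8 of 15 were 2-fold lower, against 12.5% of all genes, and none higher, against 11.6% (median -1.16), among them Isg20 (73.0 and 15.3 CPM), an exonuclease, and the immunoproteasome subunit Psmb8 (90.2 and 40.2 CPM). In macrophage-like cells 7 of 27 were 2-fold lower, against 5.27% of all genes, and none higher, against 14.7%, led by Cxcl10 (947 and 136 CPM). In basal-like cells 5 of 14 were 2-fold higher, against 15.4% of all genes, and 2 lower, near the 13% of all genes, and Ifi204, a DNA sensor of myeloid cells, was at 0.310 and 10.6 CPM. Of the 5 or 6 receptor genes at 5 CPM, none was 2-fold higher in any of the 6 classes compared, and at most 1 was 2-fold lower in each. With 8.23 to 15.4% of all genes higher and 5.01 to 13% lower in these classes, so few genes do not stand apart from the rest. In immune-like cells, a class with T and NK-like cells in DoubleTg alone, that was Ifngr1 (632 and 152 CPM), and in macrophage-like cells none of 5 was. Ifnar1 was at 8.49 and 10.3 CPM in epithelial-like cells.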

How the data were processed

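Single-cell RNA-seq (10x Genomics, 3′ tags) of prostate tissue with such lesions gave 1 DoubleTg and 1 TripleTg library. The deposited matrices hold raw UMI counts per gene and cell, which the authors made with Cell Ranger (6.0.2 in the submitters' processing notes, 6.1.1 in the header of the DoubleTg matrix) on the mouse genome mm10 with the human transgenes added. Every cell of the TripleTg matrix already met the study's limits on genes and mitochondrial UMIs and some of the DoubleTg matrix did not, so these limits were applied to both, which kept 87.8% and 100% of cells. Depth was 256880958 and 229655259 UMIs over the kept cells.

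Each library was clustered with scanpy 1.11.5 on 2000 variable genes without the listed and pathway genes, with 20 components, 15 neighbours and resolution 1. Clusters were named from marker lists by a mean log2 fold of at least 2 over other cells, or 1.5 with a marker among the top 10 genes, with 3 markers raised. These thresholds were set after clusters had been seen. Mixed clusters stayed unnamed, and so did shallow clusters with no marker of their class among the top 10 genes. The latter held 633 DoubleTg and 991 TripleTg cells. Shallow DoubleTg clusters of 159 cells (median 1186 UMIs) and 423 cells (median 2042 UMIs) had such a marker and were named luminal-like. Class comparisons can follow these rebuilt names. Predicted doublets (273 DoubleTg cells, 2.58%) were kept and left out as an alternative. The caller marked 0 of 9492 TripleTg cells, and its result was not used there.

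For each class, summed UMIs of a gene were scaled to the summed UMIs of all genes (CPM). The 95% intervals, which cover counting error only, are exact Poisson (sums), Clopper-Pearson (shares) and conditional binomial (log2 ratios). A sum of 0 was set to a floor of 3 counts. No test between genotypes was possible with 1 library each, so genes were counted as different from 2-fold at 5 CPM in either group, beside the same share over all genes. The calculation of ratios was checked on simulated epithelial-like sums with counting error only. Known folds were set in 200 genes at 5 CPM or more, and the estimates of 200 of 200 were close to the set fold. The check counted no false calls. It does not cover differences between animals, or genes and classes with few counts. Co-expression is Spearman's rho at 5000 UMIs per cell. Promoters are from RefSeq, and gene positions from GENCODE mouse release 21 (GRCm38), matched for all 33 genes. TMM factors came from edgeR 4.0.16. Genes described singly in each broad class were the 5 highest, the 5 with the largest log2 ratio, Isg15, Irf7, Ifit3, Oasl2, Bst2, Gbp2 and Igtp, and the 5 unlisted genes most like the summed members, and others were added after their values had been seen. The genes, lists and rules were chosen with earlier results of these data known. One gene of the pathway list is not reported here.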

Additional observations from a re-analysis of the deposited data

Results flagged for a closer look

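The listed genes went opposite ways in the 2 main epithelial classes. Over the members at 5 CPM in either library, the median log2 ratio of TripleTg to DoubleTg was -1.24 in luminal-like cells and 1.11 in basal-like cells. The difference between these classes was not tested, since there is 1 library per genotype. The next values leave out the cells that held at least 10 members, 18 in TripleTg and 1 in DoubleTg basal-like cells. As these cells were chosen by the members, leaving them out lowers the sums by construction. The basal-like sums were then 228.1 CPM in DoubleTg and 231.5 CPM in TripleTg, and the luminal-like median was -1.39. The basal-like median was 0.52 with 4 of 17 members 2-fold higher, against 15.2% of all genes. The 7 basal markers were also lower in TripleTg basal-like cells, at 5327 against 15310 CPM, and 7 seminal vesicle markers higher, at 3321 against 142 CPM.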

How the results depend on the processing

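No paired analysis was possible because there is 1 library per genotype. Every result has 1 value with no replicate, so a value counted as moved when it left its 95% interval (for a median ratio, that of its middle gene), when a median rho moved by over 0.02, a limit set by hand, or for a count of genes when it changed by over 1.5 times, and the cause was not tested. No median changed sign under any setting tried.

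With cells thinned to 5000 UMIs, the median log2 ratio of TripleTg to DoubleTg was -0.58 (epithelial) and the median ratio of immune to epithelial cells was 1.59 (DoubleTg), 2.07 (TripleTg). The median ratio of stromal to epithelial cells was 2.06 (DoubleTg) and the number of members 2-fold lower in TripleTg was 5 (immune). The sum in CPM was 708 (DoubleTg epithelial), 2208 (DoubleTg immune), 1676 (TripleTg immune), 3153 (DoubleTg stromal), 1751 (TripleTg stromal). With the mean over cells in place of sums, the median log2 ratio of TripleTg to DoubleTg was -0.68 (epithelial) and the median ratio of immune to epithelial cells was 2.03 (TripleTg). The median ratio of stromal to epithelial cells was 1.85 (TripleTg) and the number of members 2-fold higher in TripleTg was 3 (immune). The sum in CPM was 706 (DoubleTg epithelial), 496 (TripleTg epithelial), 2019 (DoubleTg immune), 1688 (TripleTg immune), 3062 (DoubleTg stromal), 1761 (TripleTg stromal). With all deposited cells, the median log2 ratio of TripleTg to DoubleTg was -0.93 (epithelial) and the median ratio of immune to epithelial cells was 1.29 (DoubleTg). The median ratio of stromal to epithelial cells was 1.64 (DoubleTg) and the number of members 2-fold higher in TripleTg was 0 (epithelial), 2 (immune). The sum in CPM was 832 (DoubleTg epithelial), 2095 (DoubleTg immune), 2546 (DoubleTg stromal). With luminal-, fibroblast- and macrophage-like cells standing for the 3 classes, the median log2 ratio of TripleTg to DoubleTg was -1.24 (epithelial), -0.85 (immune) and the median ratio of immune to epithelial cells was 1.80 (DoubleTg), 2.27 (TripleTg). The median ratio of stromal to epithelial cells was 0.96 (DoubleTg), 1.55 (TripleTg) and the median rho was 0.15 (DoubleTg immune), 0.094 (TripleTg stromal). The number of members 2-fold higher in TripleTg was 0 (epithelial), 2 (immune) and the number of members 2-fold lower in TripleTg was 15 (epithelial), 13 (immune). The share with at least 5 members was 12.7% (DoubleTg epithelial), 4.5% (TripleTg epithelial), 58.6% (DoubleTg immune), 62.1% (DoubleTg stromal), 34.5% (TripleTg stromal) and the sum in CPM was 872 (DoubleTg epithelial), 461 (TripleTg epithelial), 4042 (DoubleTg immune), 1870.5 (TripleTg immune), 1978 (DoubleTg stromal), 1220.4 (TripleTg stromal). With a limit of 20 CPM, the median log2 ratio of TripleTg to DoubleTg was -0.43 (epithelial) and the median ratio of immune to epithelial cells was 1.68 (DoubleTg), 1.98 (TripleTg). The number of members 2-fold lower in TripleTg was 3 (epithelial). With unnamed clusters given to their nearest class, the median log2 ratio of TripleTg to DoubleTg was -0.95 (immune) and the median ratio of immune to epithelial cells was 1.13 (DoubleTg), 1.24 (TripleTg). The number of members 2-fold higher in TripleTg was 0 (immune) and the number of members 2-fold lower in TripleTg was 13 (immune). The sum in CPM was 1750.4 (DoubleTg immune), 1022 (TripleTg immune), 2779 (DoubleTg stromal). With TMM factors, the median ratio of immune to epithelial cells was 1.32 (DoubleTg), 2.002 (TripleTg) and the median ratio of stromal to epithelial cells was 1.41 (DoubleTg), 1.47 (TripleTg). With a limit of 1 CPM, the median ratio of immune to epithelial cells was 2.06 (TripleTg) and the median ratio of stromal to epithelial cells was 1.62 (DoubleTg), 1.68 (TripleTg). The number of members 2-fold higher in TripleTg was 2 (immune). At 2000 UMIs per cell, the median rho was 0.039 (DoubleTg epithelial), 0.0134 (TripleTg epithelial), 0.0545 (DoubleTg immune), 0.055 (TripleTg immune), 0.0811 (DoubleTg stromal), 0.0755 (TripleTg stromal) and the share with at least 5 members was 2.54% (DoubleTg epithelial), 1.92% (TripleTg epithelial), 11.8% (DoubleTg immune), 9.38% (TripleTg immune), 35.9% (DoubleTg stromal), 16% (TripleTg stromal). With all UMIs of each cell, the median rho was 0.24 (DoubleTg epithelial), 0.24 (TripleTg epithelial), 0.22 (DoubleTg immune), 0.22 (TripleTg immune), 0.26 (DoubleTg stromal), 0.20 (TripleTg stromal) and the share with at least 5 members was 57% (DoubleTg epithelial), 42.5% (TripleTg epithelial), 50.8% (DoubleTg immune), 57% (TripleTg immune), 49.5% (TripleTg stromal). Within clusters, the median rho was 0.0459 (DoubleTg epithelial), 0.11 (TripleTg stromal). With members in at least 2% of cells, the median rho was 0.12 (TripleTg epithelial). With Pearson coefficients of log counts, the median rho was 0.15 (TripleTg immune), 0.16 (TripleTg stromal). Without Ifit3 and Ifit3b, the number of members 2-fold higher in TripleTg was 0 (epithelial). With members among the clustering genes, the number of members 2-fold higher in TripleTg was 2 (immune) and the sum in CPM was 797 (DoubleTg epithelial), 498 (TripleTg epithelial), 3038 (DoubleTg stromal), 1805 (TripleTg stromal). Without predicted doublets, the sum in CPM was 790.4 (DoubleTg epithelial), 2324 (DoubleTg immune), 2949 (DoubleTg stromal). Without the most abundant member of each class, the sum in CPM was 617 (DoubleTg epithelial), 413 (TripleTg epithelial), 1723 (DoubleTg immune), 1497 (TripleTg immune), 2209 (DoubleTg stromal), 1422 (TripleTg stromal).

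The following 3 settings were chosen after seeing the data. The first leaves out cells by the members they hold, which lowers the sums and the median rho by construction. Without cells with at least 10 members, the median log2 ratio of TripleTg to DoubleTg was -1.09 (epithelial) and the median ratio of immune to epithelial cells was 1.16 (DoubleTg), 1.91 (TripleTg). The median ratio of stromal to epithelial cells was 1.70 (DoubleTg) and the median rho was 0.0389 (DoubleTg epithelial), 0.0213 (TripleTg epithelial), 0.0269 (DoubleTg immune), 0.0346 (TripleTg immune), 0.0199 (DoubleTg stromal), 0.047 (TripleTg stromal). The number of members 2-fold higher in TripleTg was 0 (epithelial), 2 (immune) and the sum in CPM was 593 (DoubleTg epithelial), 341 (TripleTg epithelial), 1261 (DoubleTg immune), 1121 (TripleTg immune), 1693 (DoubleTg stromal), 1188 (TripleTg stromal). Without the epithelial-like cluster of highest level in each library, the median log2 ratio of TripleTg to DoubleTg was -0.51 (epithelial) and the median ratio of immune to epithelial cells was 1.81 (DoubleTg). The median ratio of stromal to epithelial cells was 2.17 (DoubleTg) and the number of members 2-fold lower in TripleTg was 5 (epithelial). The sum in CPM was 669 (DoubleTg epithelial), 476 (TripleTg epithelial). Without T and NK-like cells, the median ratio of immune to epithelial cells was 1.66 (DoubleTg) and the number of members 2-fold lower in TripleTg was 12 (immune). The sum in CPM was 3149 (DoubleTg immune).

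Another random seed moved none of 12 values. TMM factors left 9 of 13 values, and leaving out predicted doublets 17 of 20, within their limits. Both the shares of cells with at least 5 members and the median rho were lower at 2000 UMIs per cell, and with all UMIs the epithelial share was 57% in DoubleTg and 42.5% in TripleTg against 9.67% and 5.24%, so neither can be read without its depth.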

Other observations

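A cluster of 16 DoubleTg cells that was left unnamed had the highest summed level of any cluster outside the macrophage-like, Schwann-like and endothelial-like ones, 3666 CPM (3540 to 3795). All 16 cells held at least 5 members. Ifit3b was at 268 CPM and Ifit3 at 192 CPM there, against 7.45 and 9.51 CPM in DoubleTg epithelial-like cells, while Isg15 was at 855 CPM. The 8 epithelial markers summed to 16958 CPM and the 8 fibroblast markers to 1119 CPM, with a median depth of 53839 UMIs. Ifnl2, which encodes a type III interferon, had 35 UMIs in 2 DoubleTg cells, 34 of them in a single dendritic-like cell.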
